A study of Mus musculus with 3 samples.

Results

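The matrix metalloproteinases (MMPs), the ADAMTS proteases, the ADAMTS-like proteins and the tissue inhibitors of metalloproteinases (TIMPs) were described in freshly isolated endothelial cells (ECs) of the adult mouse lung. Members were every gene whose symbol in the deposited table is *Mmp*, *Adamts*, *Adamtsl* or *Timp* followed by its number. The rule used no measured value and found 51 of 24346 genes, namely 23 MMPs, 19 ADAMTS proteases, 5 ADAMTS-like proteins and 4 TIMPs. The ECs came from wild type male C57BL/6J mice aged 6 to 8 weeks. They were sorted by FACS as cells that carry CD31 and VE-cadherin and lack CD45 and Podoplanin, without culture. The 3 libraries, S38, S44 and S52, belong to 1 condition, so no contrast was tested and each value is a description. The labels do not say whether the libraries came from separate animals, so an SD covers the spread between these libraries, which may be technical. Where 3 values follow a gene or a group, they are those of S38, S44 and S52, in this order.

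MMPs are zinc-dependent proteases that cut collagens, laminins and other proteins of the matrix, and most are made as inactive precursors. ADAMTS proteases are secreted enzymes that bind the matrix and cut proteoglycans, procollagens or von Willebrand factor. ADAMTS-like proteins carry the same ancillary domains without a protease domain. TIMPs bind the active site of MMPs, and *Timp3* also acts on several ADAM and ADAMTS enzymes. In vessels these families are known for opening the basement membrane during sprouting and for releasing or holding back growth factors.

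Levels are FPKM, fragments scaled to gene length and to the number of mapped fragments, a scale on which genes of different length can be set side by side. Depth was estimated from the low values at 38000000, 39200000 and 34000000 fragments. At those depths 3 fragments of a 2000 bp transcript correspond to 0.0429, 0.0418 and 0.0480 FPKM, a limit that covers counting error only. All 10 endothelial markers were above 1 FPKM, with medians of 482, 533 and 484 FPKM. Single markers moved both ways in S52, with *Kdr* at 380, 360 and 237 FPKM and *Emcn* at 156, 181 and 267 FPKM. The 5 lung capillary markers, all above 1 FPKM, summed to 2506, 2797 and 2620 FPKM. Among them *Ednrb* was lowest in S52, at 143, 155 and 75.3 FPKM, and *Gpihbp1* was highest there, at 661, 663 and 886 FPKM. Markers of other lung cells were also present, and those of alveolar type 2 cells and platelets were lower in S52. The 5 alveolar type 2 markers, all above 1 FPKM, summed to 3772, 3169.7 and 760 FPKM. The 4 platelet markers, likewise all above 1 FPKM, summed to 1692, 1345 and 37.96 FPKM.

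Adult lung ECs held high levels of 3 members, the protease *Adamts1* and the inhibitors *Timp3* and *Timp2*, while most MMPs were low or listed at 0. A mean of at least 1 FPKM was reached by 24 of the 51 members (47.1%), beside 48.3% of all genes and 54.7% of protein-coding genes. The share for the members was therefore near that of all genes. By family it was 4 of 4 TIMPs, 3 of 5 ADAMTS-like genes, 8 of 19 ADAMTS genes and 9 of 23 MMPs. A mean of at least 10 FPKM was reached by 9 members, beside 25.7% of all genes. A mean of at least 100 FPKM was reached by 3 of the 51 members, beside 887 of all 24346 genes. At the other end, 9 members were listed at 0 in all 3 libraries, beside 29.5% of all genes. The median member had a mean of 0.594 FPKM, beside 0.784 FPKM for all genes and 1.89 FPKM for protein-coding genes.

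The promoters of the 3 highest members are shown because these genes carry most of the family's signal. Each stretch is the 250 bases before the RefSeq start on GRCm38.p6, written 5′ to 3′ on the gene's strand, with any TATAAA or TGANTCA on either strand in capitals. TATAAA is the core of the TATA box, and TGANTCA gives the letters of the AP-1 site. *Adamts1* lies on the minus strand with its stretch at chr16:85803114-85803363, *Timp3* on the plus strand at chr10:86300162-86300411, and *Timp2* on the minus strand at chr11:118355412-118355661. In GENCODE M21, which gave the gene positions, *Timp2* starts farther upstream, at base 118355740, so its whole stretch lies inside the gene there. *Timp3* starts at base 86300372 in that annotation, so the end of its stretch also lies inside the gene.
Adamts1: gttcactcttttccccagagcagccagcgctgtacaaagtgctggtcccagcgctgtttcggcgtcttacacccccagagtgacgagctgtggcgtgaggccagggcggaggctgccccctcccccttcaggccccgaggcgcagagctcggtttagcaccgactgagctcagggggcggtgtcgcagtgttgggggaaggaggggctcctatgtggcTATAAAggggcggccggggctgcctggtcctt
Timp3: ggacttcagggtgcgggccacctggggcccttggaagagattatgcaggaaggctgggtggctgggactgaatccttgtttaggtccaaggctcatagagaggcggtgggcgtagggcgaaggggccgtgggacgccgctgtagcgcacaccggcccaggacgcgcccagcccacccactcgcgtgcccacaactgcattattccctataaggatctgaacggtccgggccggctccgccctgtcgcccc
Timp2: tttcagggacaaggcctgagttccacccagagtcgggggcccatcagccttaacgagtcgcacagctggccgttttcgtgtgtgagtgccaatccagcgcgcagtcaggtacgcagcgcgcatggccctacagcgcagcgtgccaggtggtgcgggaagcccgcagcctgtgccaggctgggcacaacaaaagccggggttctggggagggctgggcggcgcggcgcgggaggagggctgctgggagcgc

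All 3 stretches are rich in G and C, at 65.6% for *Adamts1*, 65.6% for *Timp3* and 68.0% for *Timp2*. They hold 15, 18 and 21 CpG pairs, beside a median of 6 over 27025 promoters. Over the 26 members with a promoter outside the MMP cluster of chromosome 9 the median was 15, so these counts are not particular to the highest members. Among members listed at 0, *Adamts20* held 32 CpG pairs and *Mmp21* held 1. TATAAA stands 32 bases before the start of *Adamts1* and is absent from the stretches of *Timp3* and *Timp2*, and 13.0% of all promoters hold it. TGANTCA is in none of the 3 stretches and in 6.87% of all promoters. A match is a description of letters and not a bound site.

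The 4 TIMPs split into an abundant and a low pair. *Timp3*, the inhibitor that stays bound to the matrix, was at 285, 303 and 163 FPKM (mean 250.4 ± 76.4 FPKM, SD, n = 3). S52 was the low library, and *Timp3* was 1.75-fold lower there than in S38. *Timp2*, which in addition to inhibiting MMPs takes part in the activation of pro-MMP2 at the cell surface, was at 185, 188 and 179 FPKM (184 ± 4.45 FPKM, SD, n = 3). Its 3 libraries lay close together. Together *Timp2* and *Timp3* made up 98.3%, 98.8% and 97.9% of the summed TIMP level. The ratio of *Timp3* to *Timp2* was 1.54 in S38 and 1.61 in S44 but 0.908 in S52, so their order turned in S52.

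*Timp1*, the inducible secreted inhibitor, was at 6.01, 4.20 and 3.01 FPKM (4.41 ± 1.51 FPKM, SD, n = 3). *Timp4* was at 2.26, 1.71 and 4.23 FPKM (2.73 ± 1.32 FPKM, SD, n = 3) and was highest in S52. Estimated fragments for *Timp4* were 457, 358 and 767. *Timp1*, *Timp3* and *Timp4* lie within *Syn1*, *Syn3* and *Syn2*, each on the opposite strand. The library kit does not mark strand, but the 3 synapsin genes were all below 1 FPKM in every library. *Syn2* covers 1.53% of the exon bases of *Timp4*. *Timp4* also lies within the predicted gene *Gm17482* on the opposite strand, which has no value here, and its part in the level of *Timp4* was not tested.

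**Figure D1:**
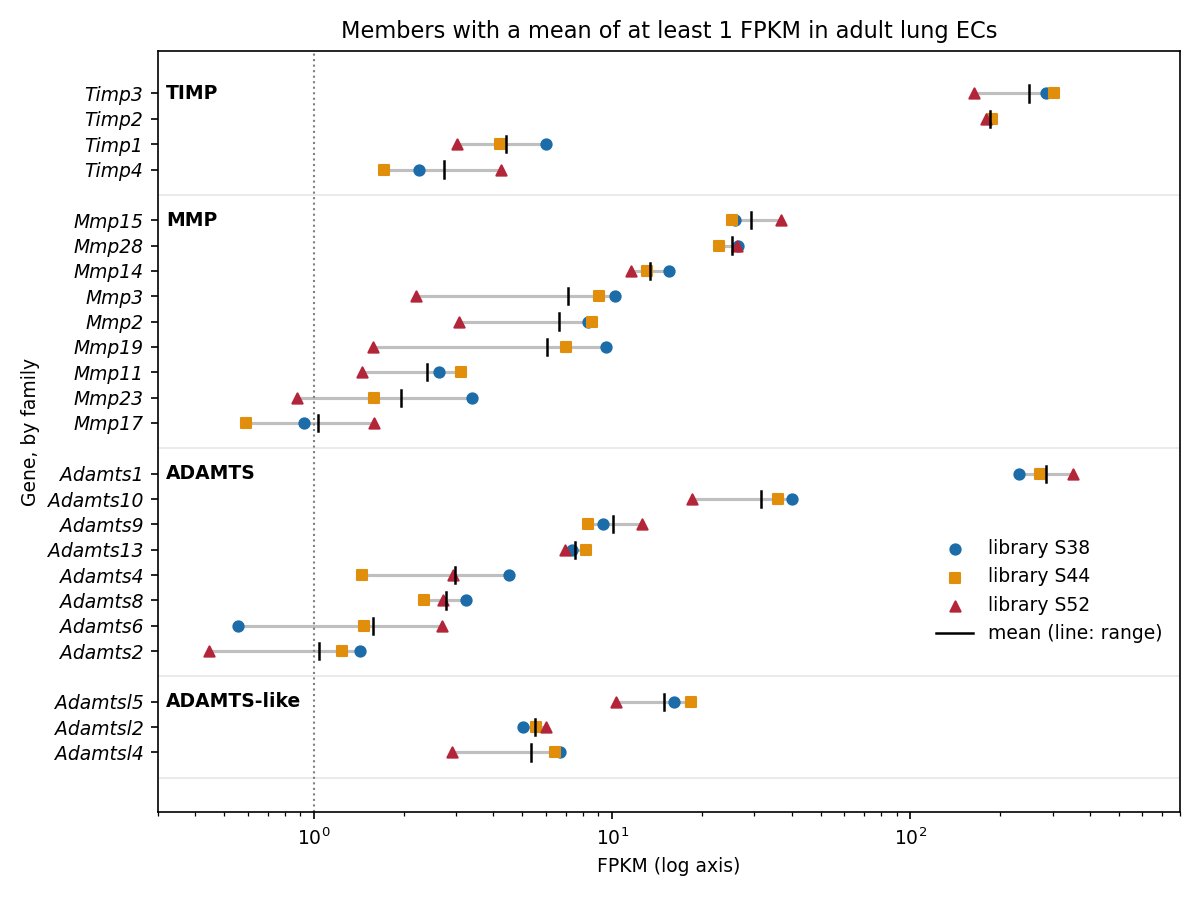
FPKM (log axis) of the 24 members with a mean of at least 1 FPKM, by family, with 1 point per library, a grey line for the range and a black bar for the mean of 3 libraries. *Adamts1*, *Timp3* and *Timp2* lie above 100 FPKM in every library, and the red S52 triangle lies at the low end for *Mmp3*, *Mmp2* and *Mmp19*.

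Among the proteoglycan-cleaving ADAMTS genes, 4 of 7 were above a mean of 1 FPKM and *Adamts1* stood far above the others. *Adamts1*, a versican- and aggrecan-cleaving enzyme that can also bind VEGF, was at 230, 273 and 351 FPKM (285 ± 61.3 FPKM, SD, n = 3). It was the highest member by its mean and ranked 366 of 24346 genes, with S52 the highest library. *Adamts1* lies at chr16:85793827-85803113 on GRCm38. It made up 77.0%, 81.7% and 87.5% of the summed ADAMTS level. Its neighbour *Adamts5*, another aggrecan-cleaving enzyme 53.1 kb away on the same strand, was at 0.510, 0.112 and 0.0591 FPKM.

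*Adamts9*, a versican-cleaving enzyme, was at 9.32, 8.31 and 12.6 FPKM (10.1 ± 2.26 FPKM, SD, n = 3) and was highest in S52. The predicted gene *Gm15737* covers 5.29% of its exon bases on the other strand. *Adamts4*, known as an aggrecan-cleaving enzyme, was at 4.51, 1.45 and 2.92 FPKM (2.96 ± 1.53 FPKM, SD, n = 3), with S44 low. *Adamts8*, an anti-angiogenic relative of *Adamts1*, was at 3.23, 2.35 and 2.71 FPKM (2.77 ± 0.445 FPKM, SD, n = 3). The predicted gene *Gm29724* covers 13.5% of its exon bases on the other strand, so reads there cannot be told apart. *Adamts15*, 20.1 kb from *Adamts8*, had a mean under 1 FPKM but reached it in S52, with 0.438, 0.624 and 1.37 FPKM. *Adamts20* was listed at 0 in every library.

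The remaining ADAMTS proteases were led by *Adamts10*, which binds fibrillin-1 microfibrils. *Adamts10* was at 40.2, 36.0 and 18.5 FPKM (31.5 ± 11.5 FPKM, SD, n = 3), lowest in S52. Its closest relative *Adamts6* went the other way at a much lower level, with 0.559, 1.47 and 2.70 FPKM (1.58 ± 1.07 FPKM, SD, n = 3). *Adamts6* was 4.83-fold higher in S52 than in S38, on 134 and 579 estimated fragments. *Adamts13*, the enzyme that trims von Willebrand factor, was at 7.36, 8.18 and 6.96 FPKM (7.499 ± 0.622 FPKM, SD, n = 3). The *Vwf* substrate itself was at 298, 314 and 235 FPKM. *Adamts13* was among the 4 members whose SD was at most 10% of the mean, with *Timp2*, *Mmp28* and *Adamtsl2*. These 4 were counted among the 24 members with a mean of at least 1 FPKM, and the share of all genes was not computed. *Adamts2*, which removes the amino-terminal propeptide of fibrillar procollagens, was at 1.43, 1.24 and 0.446 FPKM (1.04 ± 0.523 FPKM, SD, n = 3). The other procollagen N-proteinases, *Adamts3* and *Adamts14*, and both COMP-cleaving enzymes, *Adamts7* and *Adamts12*, stayed below 1 FPKM in every library. *Adamts17*, *Adamts18* and *Adamts19* also stayed below 1 FPKM, and *Adamts16* was listed at 0 throughout.

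Of the 5 ADAMTS-like genes, 3 were above a mean of 1 FPKM, and all 3 encode proteins that bind fibrillin-1. *Adamtsl5* was at 16.1, 18.4 and 10.3 FPKM (14.9 ± 4.17 FPKM, SD, n = 3). *Adamtsl2* was at 5.03, 5.54 and 5.99 FPKM (5.52 ± 0.480 FPKM, SD, n = 3), a spread of under 10% of its mean. *Adamtsl4* was at 6.69, 6.43 and 2.90 FPKM (5.34 ± 2.12 FPKM, SD, n = 3), with S52 low. *Adamtsl1* and *Adamtsl3* stayed below 1 FPKM in every library. *Fbn1*, which encodes fibrillin-1, was at 4.33, 3.0 and 4.67 FPKM.

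Of the 3 MMPs with a mean of at least 10 FPKM, *Mmp15* and *Mmp14* are held at the membrane and *Mmp28* is secreted. *Mmp15*, a transmembrane MMP, was at 25.9, 25.1 and 36.8 FPKM (29.3 ± 6.54 FPKM, SD, n = 3), highest in S52. *Mmp14*, the membrane MMP that activates pro-MMP2 with the help of TIMP2, was at 15.6, 13.1 and 11.6 FPKM (13.4 ± 2.03 FPKM, SD, n = 3). *Mmp17*, anchored by a lipid tail, was at 0.924, 0.591 and 1.59 FPKM (1.03 ± 0.507 FPKM, SD, n = 3). Thus 3 of 6 membrane-type MMPs had a mean of at least 1 FPKM, and *Mmp16*, *Mmp24* and *Mmp25* stayed below 1 FPKM in every library. Between the partners of pro-MMP2 activation, *Timp2* was 11.9-fold, 14.4-fold and 15.5-fold the level of *Mmp14* in the 3 libraries.

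*Mmp28*, a secreted MMP known as epilysin, was at 26.4, 22.9 and 26.2 FPKM (25.1 ± 1.95 FPKM, SD, n = 3), and its libraries lay close together. The opposite-strand gene *1700020L24Rik*, at 29.8, 29.6 and 31.1 FPKM, covers 12.3% of the exon bases of *Mmp28*, so its value is uncertain. *Mmp19*, a secreted MMP of the basement membrane, was at 9.52, 6.99 and 1.57 FPKM (6.03 ± 4.06 FPKM, SD, n = 3). *Tmem198b*, at 14.2, 11.04 and 11.2 FPKM, covers 22.8% of the exon bases of *Mmp19* on the other strand, so this value is uncertain too. The predicted gene *Gm47093*, which has no value here, covers a further 6.14% on the other strand. The part of reads from either gene in the level of *Mmp19* was not tested. *Mmp23* was at 3.40, 1.59 and 0.875 FPKM (1.95 ± 1.30 FPKM, SD, n = 3), on 165, 79 and 38 estimated fragments.

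The gelatinases, which cut denatured collagen and type IV collagen, differed in level. *Mmp2* was at 8.28, 8.54 and 3.08 FPKM (6.64 ± 3.08 FPKM, SD, n = 3), with S52 low. *Mmp9* was at 0.174 and 0.568 FPKM in S38 and S44 and was listed at 0 in S52. Of the stromelysins, broad-acting secreted MMPs, *Mmp3* was at 10.2, 9.01 and 2.201 FPKM (7.14 ± 4.32 FPKM, SD, n = 3), again with S52 low. *Mmp11*, which is activated inside the cell by furin, was at 2.62, 3.11 and 1.45 FPKM (2.39 ± 0.854 FPKM, SD, n = 3). None of the 4 collagenase genes, *Mmp1a*, *Mmp1b*, *Mmp8* and *Mmp13*, reached 1 FPKM in any library.

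Ordered by mean, the 24 members above 1 FPKM form 23 pairs of neighbours, and the ranges of the libraries were separate in only 3 of them. These were *Timp2* above *Adamts10*, *Mmp28* above *Adamtsl5*, and *Adamts9* above *Adamts13*. *Adamts1* and *Timp3* did not differ beyond their spread, nor did *Timp3* and *Timp2*. In S38 and S44 *Timp3* was the higher of the first pair, and in S52 *Adamts1* was.

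On chromosome 9, 10 MMP genes lie next to each other over 427 kb (chr9:7272514-7699585 on GRCm38), and *Mmp3* alone among them reached 1 FPKM. *Mmp1a*, *Mmp1b*, *Mmp7*, *Mmp10*, *Mmp20* and *Mmp27* were listed at 0 in all 3 libraries. *Mmp12*, the macrophage elastase, was at 0.252 and 0.334 FPKM in S38 and S44 and was listed at 0 in S52. *Mmp8*, the neutrophil collagenase, was at 0.103, 0.335 and 0 FPKM, and *Mmp13* at 0.0105, 0.173 and 0 FPKM. All 9 neighbours of *Mmp3* were thus far below it. The nearest of them, *Mmp1a*, starts 8.17 kb after the end of *Mmp3* and is annotated as a polymorphic pseudogene.

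**Figure D2:**
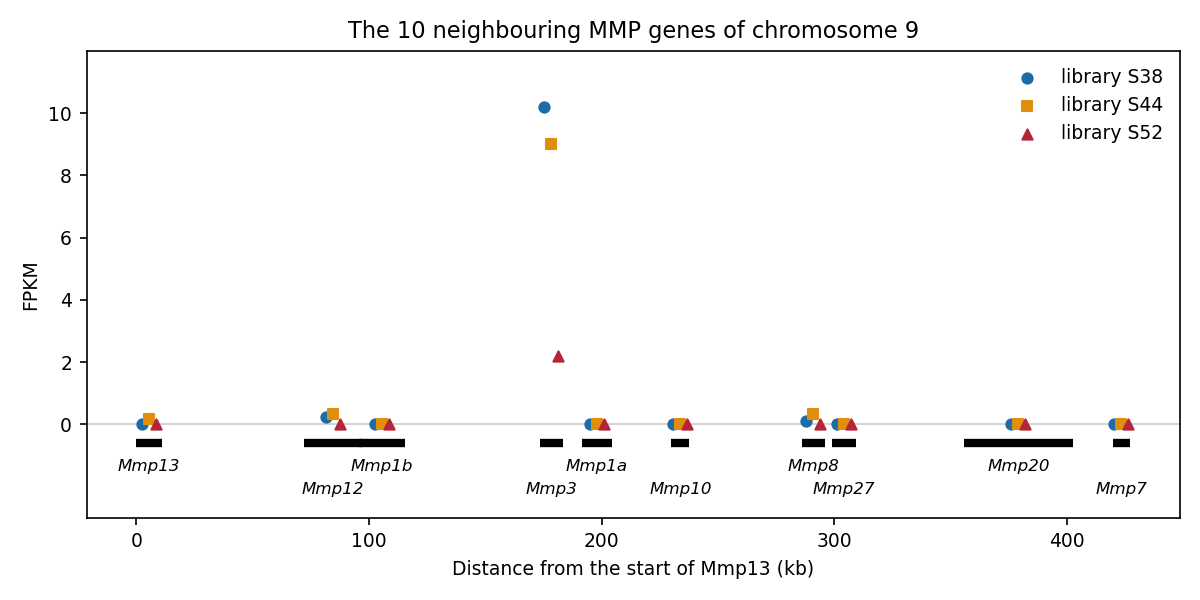
FPKM in each library of the 10 MMP genes of the chromosome 9 cluster, placed by distance in kb from the start of *Mmp13*, with black bars for the genes. *Mmp3* stands at 10.2, 9.01 and 2.201 FPKM, and the other 9 genes lie at or near 0.

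The last 100 bases before the starts of *Mmp3*, *Mmp10* and *Mmp13* are shown because they share the same pair of motifs while only *Mmp3* was read at a level above 1 FPKM. They are on the plus strand of GRCm38.p6, at chr9:7445722-7445821, chr9:7502242-7502341 and chr9:7272414-7272513, with TATAAA and TGANTCA in capitals. The matches do not overlap each other. Their places differ, with TATAAA 7 bases before the start of *Mmp3*, 29 before that of *Mmp10* and 16 before that of *Mmp13*.
Mmp3: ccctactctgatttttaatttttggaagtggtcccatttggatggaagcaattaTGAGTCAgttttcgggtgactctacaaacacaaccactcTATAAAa
Mmp10: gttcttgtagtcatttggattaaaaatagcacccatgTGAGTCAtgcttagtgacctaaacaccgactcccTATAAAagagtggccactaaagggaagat
Mmp13: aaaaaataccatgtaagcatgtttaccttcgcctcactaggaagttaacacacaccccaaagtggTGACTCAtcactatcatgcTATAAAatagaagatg

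RefSeq promoters were found for 36 of the 51 members, including all 10 genes of the cluster. In the 250 bases before the start, 7 of the 10 cluster genes held TGANTCA and the same 7 held TATAAA, namely *Mmp1a*, *Mmp1b*, *Mmp3*, *Mmp7*, *Mmp10*, *Mmp13* and *Mmp20*. Of the 26 members outside the cluster, 0 held TGANTCA and 3 held TATAAA, namely *Adamts1*, *Adamtsl2* and *Mmp21*. The cluster promoters were also poor in CpG pairs, with a median of 0.5, beside 15 for the other members. Of the 17 members above a mean of 1 FPKM with a promoter, 1 held TGANTCA, and of the 19 below it 6 did. The motif was therefore found at genes listed at 0 as well as at *Mmp3*.

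Summed by family, the TIMPs took the largest share of the members' signal in S38 and S44, and the ADAMTS proteases in S52. The TIMP share of summed FPKM was 52.6%, 52.04% and 40.8% (48.5% ± 6.67, SD, n = 3). The ADAMTS share was 32.9%, 35.0% and 46.8% (38.2% ± 7.52, SD, n = 3), and the MMP share was 11.4%, 9.74% and 10.1% (10.4% ± 0.865, SD, n = 3). In S52 the TIMP share was the lowest and the ADAMTS share the highest of the 3 libraries, while the MMP share lay between those of S38 and S44. The summed TIMP level was 4.63-fold, 5.34-fold and 4.06-fold the summed MMP level. Set against MMPs and ADAMTS proteases together, it was 1.19-fold and 1.16-fold in S38 and S44 and 0.717-fold in S52. These sums rest on few genes, since *Adamts1*, *Timp3* and *Timp2* made up 77.0%, 80.0% and 80.9% of all members' FPKM. They are sums of mRNA levels and do not measure protein or activity.

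**Figure D3:**
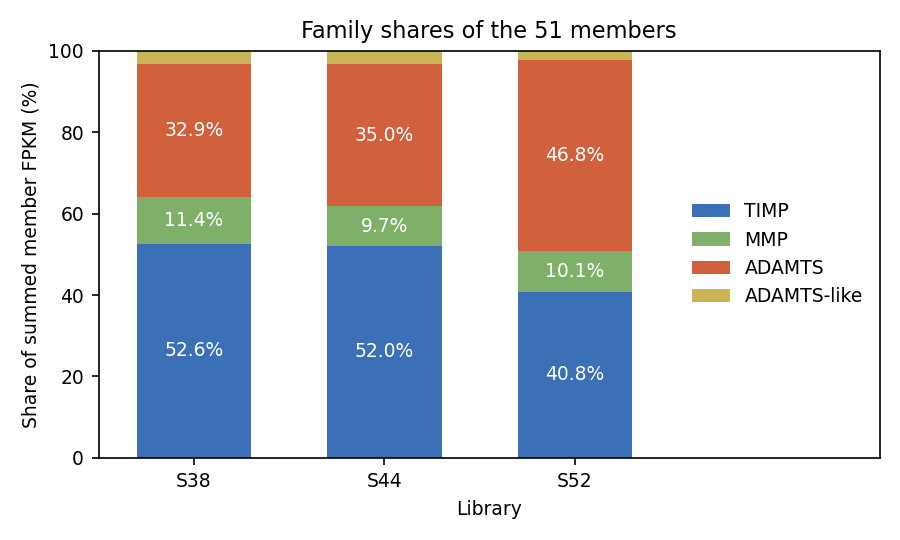
Share of the summed FPKM of the 51 members (%) taken by each family in S38, S44 and S52, with 1 stacked bar per library. TIMPs take 52.6% and 52.04% in S38 and S44 and 40.8% in S52, where the ADAMTS share is 46.8%.

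The members above a mean of 1 FPKM varied between the libraries of this single condition. In 12 of the 24 the highest library was over 2-fold above the lowest, beside 20.1% of all genes past the same filter. The same count was made within 2 bands of mean level. At a mean of 1 to under 10 FPKM the count was 11 of 15 members, beside 33.0% of genes in that band, and at 10 FPKM or more it was 1 of 9 members, *Adamts10*, beside 8.74%. The count was 8 members without S38, 7 without S44 and 3 without S52. A range over fewer libraries cannot be wider, and the share of all genes was not computed for these counts. The bands were chosen after the values were seen.

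S52 was over 2-fold below both other libraries in 5 of 24 members (20.8%), namely *Mmp2*, *Mmp3*, *Mmp19*, *Adamts2* and *Adamtsl4*, beside 8.04% of all genes. At a mean of 1 to under 10 FPKM this was 5 of 15 members, beside 13.1% of genes in that band. At 10 FPKM or more it was 0 of 9 members, beside 3.57%. S52 was over 2-fold above both in 0 members, beside 1.72% of all genes. *Mmp19* was 6.05-fold lower in S52 than in S38 and 4.44-fold lower than in S44. For *Mmp3* the values were 4.63-fold and 4.09-fold, and for *Mmp2* 2.69-fold and 2.78-fold. In the opposite direction, *Timp4* was 1.87-fold and 2.47-fold higher in S52 than in S38 and S44.

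On the log2(FPKM + 1) scale, which understates changes of low genes, the median ratio of S52 to S38 over the 24 members was -0.45, with 17 lower (70.8%) and 7 higher. Over 11770 genes past the same filter it was -0.083, with quartiles of -0.42 and 0.21 and 56.9% of genes lower. The median ratio of S52 to S44 was -0.18, with 14 members lower (58.3%) and 10 higher, beside -0.062 and 55.5% lower for all genes, so the share of members lower than in S44 was near that of all genes. Over the 9 members with a mean of at least 10 FPKM the medians were -0.047 against S38 and -0.068 against S44, so the lower medians rest on the members below that level. Members higher and members lower in S52 than in S38 were found in each of the 4 families. *Adamts1*, *Adamts6*, *Adamts9*, *Mmp15*, *Mmp17*, *Adamtsl2* and *Timp4* had their highest value in S52.

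**Figure D4:**
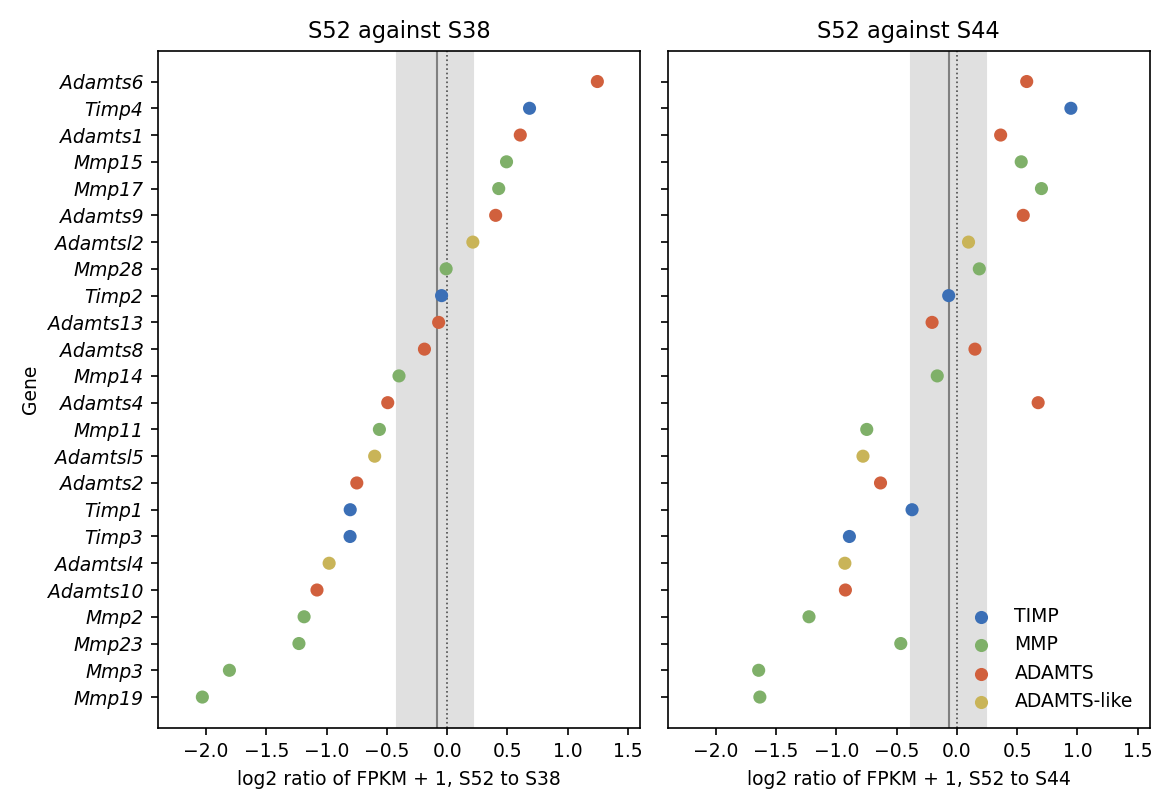
Log2 ratio of FPKM + 1 in S52 to S38 (left) and to S44 (right) for the 24 members above a mean of 1 FPKM, coloured by family, with the grey band marking the quartiles and the grey line the median of 11770 genes. *Mmp19* and *Mmp3* lie farthest to the left in both panels, and *Adamts6* and *Timp4* farthest to the right in the left and right panel.

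Markers of several other cell types were lower in S52 as well. Here a marker counts as above 1 FPKM by its mean. In bulk RNA, fewer cells of a type and less RNA per cell cannot be told apart. The 6 fibroblast markers, all above 1 FPKM, summed to 86.3, 71.1 and 54.1 FPKM, and within them *Dcn* was at 47.4, 35.5 and 19.8 FPKM while *Pdgfra* was at 7.13, 5.86 and 7.72 FPKM. Of 7 macrophage markers 4 were above 1 FPKM, and the list summed to 102, 64.9 and 23.1 FPKM. The lower sum in S52 came from *Chil3* at 55.7, 26.1 and 3.28 FPKM and *Ear2* at 25.8, 7.70 and 1.11 FPKM, while *Cd68* was at 17.0, 27.4 and 16.7 FPKM and *Csf1r* at 1.25, 1.85 and 1.30 FPKM. *Marco*, another macrophage marker of the list, was at 0.461, 0.561 and 0 FPKM. Of the 5 neutrophil markers with a deposited value, 3 were above 1 FPKM, with sums of 36.7, 48.1 and 2.90 FPKM and *Camp* at 0 throughout. Of 4 mesothelial markers 1 was above 1 FPKM, and all 4 were at 0 in S52, after sums of 2.34 and 6.14 FPKM in S38 and S44. The 5 airway markers, all above 1 FPKM, summed to 2786, 2314 and 408 FPKM, and 4 of 6 lymphocyte markers were above it with sums of 16.5, 13.4 and 4.19 FPKM. The 6 mural markers, again all above 1 FPKM, had sums of 207, 123 and 193 FPKM. The part of any of these cells in the levels of *Mmp2*, *Mmp3*, *Mmp19* or *Timp3* was not tested.

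Genes that act on these proteases were also read. Of 4 proprotein convertases, which cut the prodomains of ADAMTS proteases and several MMPs, 3 were above a mean of 1 FPKM. *Furin* was at 21.9, 21.6 and 27.3 FPKM. Of 7 genes of the plasminogen system, which can activate MMP precursors, 5 were above 1 FPKM. They included the urokinase receptor *Plaur* at 223, 287 and 286 FPKM and the activator *Plat* at 81.1, 90.0 and 88.7 FPKM. Plasminogen itself, *Plg*, was at 0, 0.00985 and 0 FPKM.

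In a list of 7 other genes that inhibit, clear or induce metalloproteinases, 5 were above a mean of 1 FPKM. *Bsg*, an inducer of MMPs on neighbouring cells, was at 187, 189 and 194 FPKM, and *Thbs1*, which binds MMPs and their clearance receptor, was at 251, 185 and 95.3 FPKM, lowest in S52. *Reck*, a membrane-anchored MMP inhibitor, was at 5.52, 4.30 and 7.85 FPKM. Of 14 ADAM and astacin metalloproteinases 7 were above 1 FPKM, led by *Adam15* at 122, 145 and 133 FPKM and *Adam10* at 37.5, 32.4 and 25.2 FPKM.

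Of 18 substrates of these enzymes, 12 were above a mean of 1 FPKM. The basement membrane collagens *Col4a1* and *Col4a2* were at 219, 228 and 170 FPKM and at 121, 123 and 115 FPKM. The large proteoglycans cut by *Adamts1* and its relatives were low in the same cells, with *Vcan* at 0.460, 0.229 and 0.650 FPKM and *Acan* at 0.197, 0 and 0 FPKM.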

How the data were processed

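RNA of 3 libraries of adult lung ECs (S38, S44 and S52) was sequenced as poly-A selected, non-stranded pairs of 51 bp. The authors deposited FPKM per gene symbol on mm10. The submitters' processing notes name bcl2fastq 2.17, FastQC 0.11.5, Trimmomatic 0.36, TopHat2 2.1.0 and Cufflinks 2.2.1, whereas the methods of the paper name STAR and HTSeq for its counts. The gene annotation is not given in the sources used here. Values were used as deposited, and FPKM are not counts, so no count model was fitted. With 1 condition no test was made. The members and all lists were chosen with earlier results of these data known.

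Members whose mean reached 1 FPKM were counted as detected. Ratios used log2(FPKM + 1), a pseudocount of 1. Detected members were named with all 3 values, the others by role, and of each pathway list up to 3 of the highest genes, with further genes chosen after their values were seen. Of the genes this rule would name, 1 is not reported here. Depth was estimated from the step between low values of 7077 genes with 1 transcript of 800 to 4000 bp. Within a tolerance of 0.15 fragments, 75.6%, 75.2% and 72.1% of low values were whole. On whole counts simulated with the transcript lengths that the estimate assumes, the error was at most 0.333%. The annotation behind the deposited values is not known, so that figure does not measure the error of the depths given here. Positions are those of GENCODE M21, in which all 51 members were found, and promoters those of RefSeq on GRCm38.p6. The table held 0 per-sample columns that were not used. Analyses used Python 3.11.15, pandas 2.3.3, numpy 2.4.6 and matplotlib 3.10.9. Alternatives were other thresholds, filters, a pseudocount of 0.1, rescaled libraries and leaving out each library.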

Additional observations from a re-analysis of the deposited data

How the results depend on the processing

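No paired analysis was possible because the libraries form 1 group. The count of detected members, 24 at a mean of 1 FPKM, was 37 at 0.1 FPKM, 9 at 10 FPKM, and 23 without any 1 of the libraries. The median member level of 0.594 FPKM was 2.77 FPKM over members above 0 in every library and 0.414 FPKM with each library rescaled to a sum of 1000000, and ranged from 0.490 to 0.737 FPKM as 1 library was left out. The count of members over 2-fold apart, 12, was 29 with no filter and 1 at a mean of 10 FPKM, and ranged from 3 (without S52) to 8 as 1 library was left out. With no filter, any member listed at 0 in 1 library and above 0 in another counts as over 2-fold. The share of all genes was 20.1% at a mean of 1 FPKM and 8.74% at 10 FPKM, and was not computed for the other settings. The median log2 ratio of S52 to S38, -0.45, was 0 with no filter, where members listed at 0 enter, and -0.047 at a mean of 10 FPKM. The median ratio of S52 to S44, -0.18, was -0.0082 with no filter, -0.024 with libraries rescaled to 1000000 and -0.068 at a mean of 10 FPKM, values near 0. The TIMP share ranged from 46.4% to 52.3% as 1 library was left out. Rescaling to 1000000 shifted log2 values by -0.21 in S38, -0.68 in S44 and -0.51 in S52, and moved the means of 9 of the 24 detected members by more than 1 SD, while equal protein-coding sums moved 0. Depth limits *Mmp23*, *Timp1* and the members below 1 FPKM most.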
